A study of Mus musculus with 20 samples.

Results

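The mitochondrial ribosomal proteins are the proteins, encoded in the nucleus, that together with RNAs of the organelle's own genome build the ribosome inside mitochondria. Their genes were taken as every annotated row of the expression table that named exactly 1 gene with a symbol starting Mrpl or Mrps followed by a digit. That gave 71 genes of the 22180 genes measured, 43 of them Mrpl and 28 Mrps symbols. Several probe sets measured 9 of these genes, and of those the most variable one (by interquartile range over the arrays) stands for the gene. By the place of the protein in the mammalian ribosome, 45 belonged to the large subunit, 25 to the small subunit, and 1, Mrps36, was not placed, since its product is also known as a part of the 2-oxoglutarate dehydrogenase complex. Mrps30 and Mrps18a were counted with the large subunit, where their proteins sit despite the symbols. The genes lay on 17 chromosomes. Another 7 symbols of the family (Mrpl30, Mrpl33, Mrpl41, Mrpl43, Mrpl44, Mrpl53 and Mrps6) occurred only in rows shared with other genes and were not analysed here.

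The mitochondrial ribosome makes only a handful of proteins, all of them hydrophobic subunits of the respiratory chain and of ATP synthase, and neurons draw most of their ATP from these complexes. It descends from a bacterial ribosome but has lost much RNA and gained proteins with no bacterial relative, so its parts divide into those shared with bacteria and those specific to mitochondria. In humans, inherited loss of several of these proteins causes combined deficiencies of oxidative phosphorylation.

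The arrays measured RNA of microdissected striatum from 20 mice of a C57B6/J background at 12 months of age, 5 in each of 4 groups. ASO-NSC and ASO-Veh mice carried a transgene of line D in which the PDGF-β promoter drives human wild-type α-synuclein, a model of Dementia with Lewy Bodies, and WT-NSC and WT-Veh mice were their littermates without it. NSC mice had received intrastriatal injections of GFP-expressing neural stem cells, grown from the hippocampus and cortex of newborn GFP-transgenic mice, and Veh mice had received saline. Behavioural tests began a month after the injection and the striatum was taken after them, so the tissue of NSC mice can hold host and grafted cells together. In such bulk tissue fewer cells of a type and less RNA per cell cannot be told apart.

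Values are log2 intensities made with robust multiarray analysis (RMA), so a difference of 1 is a doubling of the signal. As in the network of the study, ASO-NSC mouse 59 was left out of the fits, which therefore held 4 ASO-NSC mice and 19 arrays, while values by mouse are given for all 20. Groups were compared with limma, with labelled sex as a covariate and Benjamini-Hochberg adjustment over all 22180 genes, and a gene was called at an adjusted p under 0.05. In 5 arrays (mice 45 and 47 of ASO-Veh, 54 of WT-NSC, 61 and 62 of WT-Veh) Xist and the Y-linked genes went against the labelled sex. Medians of the members that move by over 1.5 times without these arrays are given with and without them. Litter and treatment overlapped almost fully, since only litter 3 held both NSC and Veh mice. Genes of striatal spiny neurons (Drd2, Penk and others, 5 measured) were bright, with mean log2 intensities between 9.93 and 12.6.

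Most of the 71 genes were well above the dim end of the array. Their mean log2 intensities had a median of 7.72 (quartiles 7.28 and 8.63), and 60 of 71 exceeded the median gene of the array. The brightness of a probe set depends on its probes as well as on the RNA, so genes are not ranked against each other. The brightest probe sets were those of Mrpl10 (9.72), a protein of the ribosomal stalk, Mrpl23 (9.47), which lines the exit of the protein tunnel, and Mrpl35 (9.23). The dimmest were those of Mrpl47 (5.36), Mrps18c (5.71) and Mrpl27 (5.72), near the lower quartile of all genes (5.26). Over the 20 mice most genes varied little: the SD had a median of 0.13 log2 units and ran from 0.059 for Mrpl55, 0.065 for Mrpl38 and 0.066 for Mrps11 to 0.26 for Mrpl54, 0.27 for Mrps18c and 0.36 for Mrps21.

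The question in each comparison was whether the graft or the transgene moved these genes, singly or together. No member was called in any of the 8 comparisons. The clearest feature of the data was a small difference in one direction that many members shared in WT mice after grafting, together with a spread between mice of about the same size.

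This is visible in the mean deviation of the members in each mouse, that is, the log2 value of a gene minus its mean over the 20 mice, averaged over the 71 genes. ASO-NSC mice 56, 57, 59, 73 and 75 stood at -0.047, 0.15, 0.030, -0.068 and 0.022. ASO-Veh mice 42, 45, 46, 47 and 68 stood at -0.063, -0.033, 0.020, -0.0049 and -0.019. WT-NSC mice 53, 54, 58, 70 and 74 stood at 0.050, 0.089, 0.079, 0.080 and -0.031, and WT-Veh mice 61, 62, 64, 66 and 67 at -0.076, -0.11, -0.020, -0.12 and 0.083. In WT mice 4 of 5 NSC mice lay above 4 of 5 Veh mice, and WT-NSC mouse 74 and WT-Veh mouse 67 lay on the other side of the divide. The same values in ASO mice overlapped throughout, with ASO-NSC mouse 57 the highest of all 20. In ASO-NSC mouse 57, 60 of 71 members were above their own mean, and in WT-Veh mouse 67 this was so for 54. The group means were 0.016 ± 0.084 in ASO-NSC mice, -0.020 ± 0.031 in ASO-Veh mice, 0.053 ± 0.049 in WT-NSC mice and -0.050 ± 0.084 in WT-Veh mice (SD, n = 5 each).

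**Figure D1:**
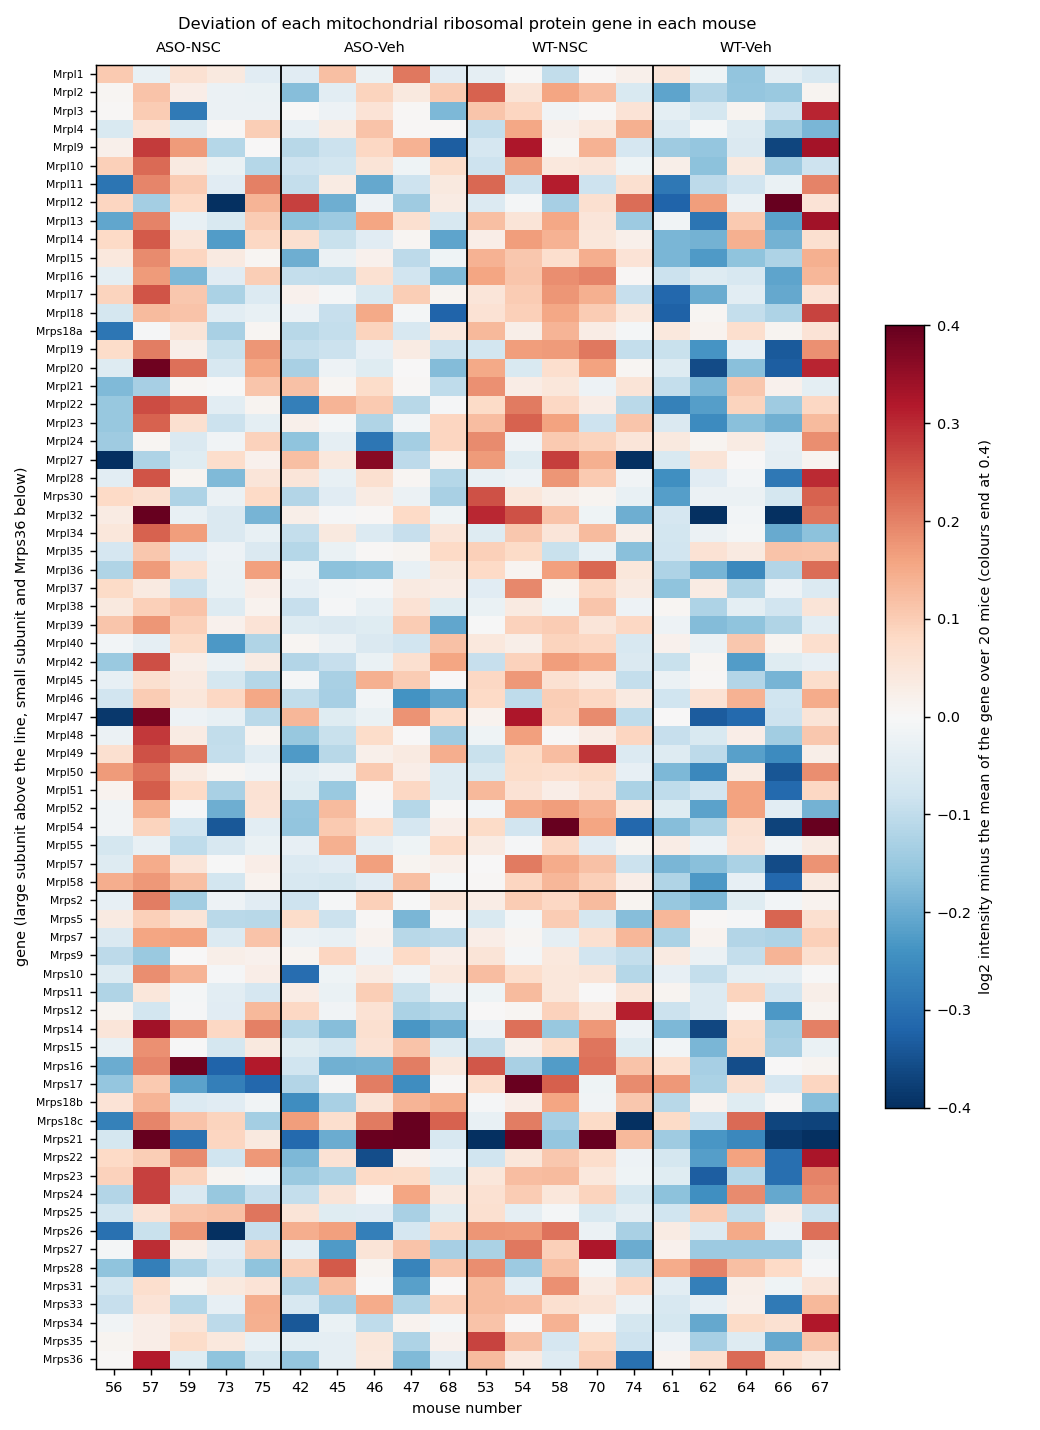
Log2 intensity of each of the 71 genes (rows, large subunit above the line) in each of the 20 mice (columns, by group), as the difference from the gene's mean over all mice; red is higher and blue lower, and colours end at 0.4 log2 units. Most genes of a column share a colour in some mice, red in ASO-NSC mouse 57 and WT-Veh mouse 67 and blue in WT-Veh mice 62 and 66.

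**Figure D2:**
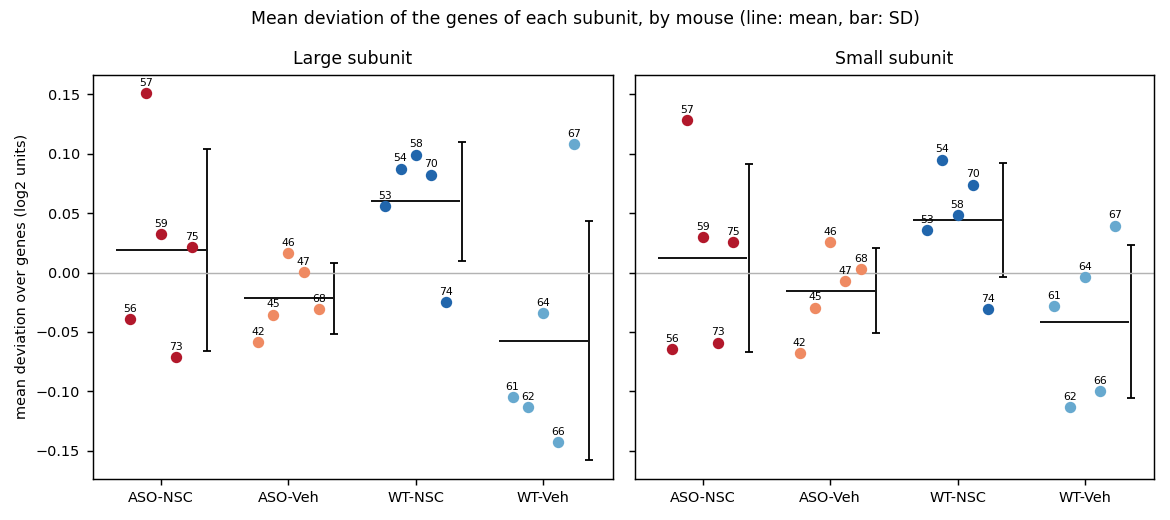
Mean deviation (log2 units) of the large subunit genes (left) and the small subunit genes (right) in each mouse, labelled by mouse number; lines are group means and bars are SD (n = 5 mice). Both subunits place the mice alike, with WT-Veh mouse 67 at 0.11 for the large and 0.040 for the small subunit and above the other WT-Veh mice in both.

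Large and small subunit genes gave similar means. The large subunit averaged 0.060 ± 0.050 in WT-NSC mice and -0.057 ± 0.10 in WT-Veh mice, and the small subunit 0.044 ± 0.048 in WT-NSC mice and -0.041 ± 0.065 in WT-Veh mice (SD, n = 5 each). Lists outside the family followed the same mice in part. The 66 cytosolic ribosomal proteins averaged 0.076 in ASO-NSC mouse 57 and 0.062 in WT-Veh mouse 67, and the 32 complex I subunits 0.11 in ASO-NSC mouse 57 and 0.058 in WT-Veh mouse 67. WT-NSC mice 54 and 70, among the highest for the members, were near 0 for the cytosolic ribosomal proteins (0.015 and 0.0019), where ASO-NSC mouse 59 (0.093) and WT-NSC mouse 58 (0.096) were the highest. WT-NSC mouse 58 was also the highest for complex I (0.11). Complex I had the same sign as the members in most mice. In WT-Veh mice 61, 62 and 66, the lowest for the members, complex I averaged -0.087, -0.11 and -0.12. In WT-NSC mice 54 and 70 it averaged 0.048 and 0.058. The signs differed in ASO-NSC mouse 75, ASO-Veh mice 45, 47 and 68 and WT-Veh mouse 64. In those mice complex I lay between -0.0011 and 0.016.

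After grafting in WT mice (WT-NSC against WT-Veh), the fitted difference was positive for 63 of 71 members, with a median of 0.12 log2 units (quartiles 0.041 and 0.17), where the median over all genes was 0.0016. None was called, with a smallest adjusted p of 0.162, and 0.433% of all genes were called in this comparison. At an unadjusted p under 0.05 there were 19 members, all 19 higher in WT-NSC mice, while 13.5% of all genes passed that threshold in either direction. Part of this difference was shared by other genes of like brightness: among the 4703 other genes with a mean intensity between the quartiles of the members, 70.4% were positive, with a median of 0.050. The standard error of a member's difference had a median of 0.077, so most single differences were less than 2 standard errors from 0.

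By role, the proteins of the large subunit shared with bacteria had the largest median, 0.16 over 27 genes, of which 25 were positive and 8 passed the unadjusted threshold. The large subunit proteins specific to mitochondria had a median of 0.11 over 18 genes, with 17 positive and 6 past that threshold. For the small subunit the medians were 0.089 over 15 shared genes and 0.12 over 10 specific genes, and 5 genes in all passed the unadjusted threshold.

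Mrpl2, whose protein lies beside the peptidyl transferase centre, led the list. Its log2 values in WT-NSC mice 53, 54, 58, 70 and 74 were 7.64, 7.45, 7.56, 7.52 and 7.34, against 7.19, 7.28, 7.25, 7.25 and 7.41 in WT-Veh mice 61, 62, 64, 66 and 67. WT-NSC mouse 74 fell below WT-Veh mouse 67, and the other 4 WT-NSC mice exceeded all 5 WT-Veh mice. The fitted difference was 0.23 ± 0.068 (SE, limma adjusted p = 0.162).

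Mrpl15, a protein of the core of the large subunit, measured 8.54, 8.50, 8.46, 8.54 and 8.45 in the WT-NSC mice in the same order, against 8.21, 8.17, 8.24, 8.27 and 8.54 in the WT-Veh mice. Only WT-Veh mouse 67 reached the WT-NSC range, and the difference was 0.21 ± 0.068 (SE, limma adjusted p = 0.196). Mrpl58, a peptidyl-tRNA hydrolase that frees stalled ribosomes and is built into the large subunit, measured 8.56, 8.64, 8.69, 8.65 and 8.59 in WT-NSC mice and 8.44, 8.33, 8.52, 8.24 and 8.59 in WT-Veh mice, again with mouse 67 as the highest WT-Veh mouse (difference 0.21 ± 0.069, SE, limma adjusted p = 0.201). The Mrpl58 difference was 0.059 with litter as a block.

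Mrpl39, a large subunit protein specific to mitochondria, was the only member whose 5 WT-NSC mice and 5 WT-Veh mice did not overlap, where 2.28% of all genes had groups apart. It measured 8.71, 8.80, 8.81, 8.75 and 8.79 in WT-NSC mice and 8.68, 8.53, 8.54, 8.59 and 8.66 in WT-Veh mice. The lowest WT-NSC mouse and the highest WT-Veh mouse were close, and the fitted difference was 0.17 ± 0.058 (SE, limma adjusted p = 0.204). It turned to -0.13 with litter as a block. Mrps21, the small subunit protein with the widest spread of all members, gave the largest difference, 0.47 ± 0.19 (SE, limma adjusted p = 0.289), with 6.83, 7.91, 7.08, 7.71 and 7.37 in WT-NSC mice and 7.09, 7.00, 6.98, 6.85 and 6.79 in WT-Veh mice. WT-NSC mice 53 and 58 lay within the narrow band of the WT-Veh mice, and the other 3 WT-NSC mice above it. The WT-Veh mean of Mrps21 (6.94) was also below that of ASO-Veh mice, which had no graft (7.28). The means of ASO-NSC and WT-NSC mice were 7.34 and 7.38.

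The size of the shared shift in WT mice depended on the arrays and the processing, but its median was positive in every alternative. The median of the members ran from 0.090 to 0.16 when any single mouse was left out, and from 0.070 to 0.16 over other alternatives. The upper end of the latter came from the more variable 50% of genes, which held 28 members, 26 of them positive. Without WT-Veh mouse 67 the median of the members was 0.16, 36 members passed the unadjusted threshold and 2, Mrpl15 and Mrpl57, were called. Leaving out this mouse also raised the number of all genes called, from 96 to 277. Without the 5 arrays whose sex genes went against the label, 2 of all genes were called. The median of the members was then 0.070, with 54 of 71 positive and 4 past the unadjusted threshold. With litter as a block, which leaves litter 3 as the only link between NSC and Veh mice, it was 0.071 with 47 of 71 positive, and with every array centred on its own median it was 0.090 with 54 positive while the median of all genes moved to -0.029. RMA had already quantile-normalized the arrays, so quantile normalization here and below means a further round over the genes used. With it the median of the members was 0.071 with 53 positive. Before that round the array medians averaged 6.79 in WT-NSC mice and 6.76 in WT-Veh mice. In litter 3 itself, WT-NSC mouse 53 against ASO-Veh mice 46 and 47, the median was 0.045 with 44 of 71 positive.

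Markers of several cell types had median differences above 0 in the same comparison, and most were not called. The 4 astrocyte markers had a median difference of 0.30 in WT-NSC against WT-Veh mice, with 1 of 4 called, and their mean level ran from 9.54 to 9.82 in WT-NSC mice and from 9.15 to 9.51 in WT-Veh mice, with none of them near the dim end. The 4 microglia markers had a median difference of 0.19 (level 8.40 to 8.65 in WT-NSC mice and 8.19 to 8.35 in WT-Veh mice) and the 3 choroid plexus markers 0.33 (level 7.64 to 9.48 in WT-NSC mice and 7.27 to 9.68 in WT-Veh mice), none of them called. The single blood cell marker measured differed by 0.60 (level 6.13 to 7.36 in WT-NSC mice and 5.88 to 6.27 in WT-Veh mice) and was not called. It is 1 gene, so it is not ranked against the medians of the other cell types. The 3 cortical neuron markers had a median difference of 0.27 (level 6.45 to 8.07 in WT-NSC mice and 5.95 to 8.20 in WT-Veh mice), the 3 oligodendrocyte markers 0.21 (level 10.0 to 10.4 in WT-NSC mice and 9.90 to 10.1 in WT-Veh mice) and the 4 neural stem cell markers 0.13 (level 8.54 to 8.77 in WT-NSC mice and 8.34 to 8.60 in WT-Veh mice), none of them called. The 3 endothelial markers had a median difference of 0.082, the 4 pan-neuronal markers 0.032 and the 2 markers of oligodendrocyte progenitors 0.0046. The 5 spiny neuron markers had -0.063, and none of these was called. The part of all these cell types in the shift of the mitochondrial ribosomal proteins was not tested.

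**Figure D3:**
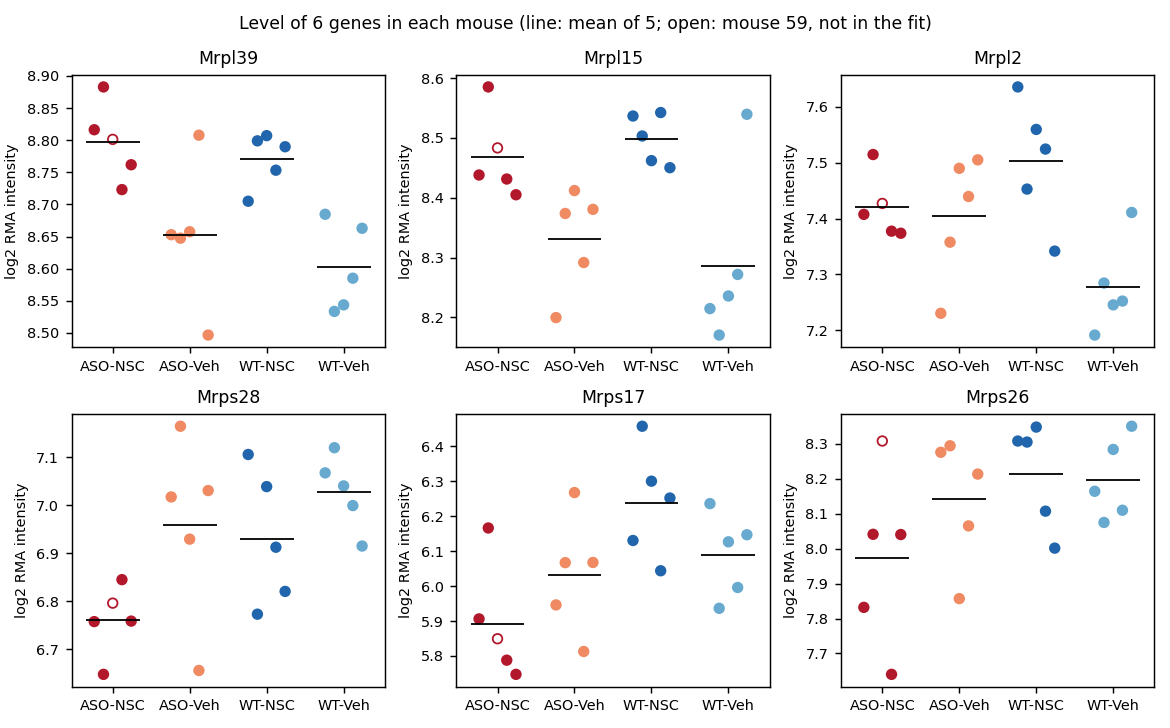
Log2 intensity of 6 genes in each mouse, by group; lines are means of 5 mice and the open circle is ASO-NSC mouse 59, which was not in the fit. Mrpl39 is the gene whose WT-NSC and WT-Veh mice do not overlap, Mrpl15 overlaps only through WT-Veh mouse 67, and Mrps28 does not overlap between ASO-NSC mice (lower) and WT-Veh mice.

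In ASO mice the fitted difference that members shared was smaller, and the test of that contrast between genotypes is given further on. For ASO-NSC against ASO-Veh the members had a median of 0.041 log2 units (quartiles -0.0050 and 0.095), with 51 of 71 positive, and the median of all genes was 0.0036. None was called (smallest adjusted p 0.468), and 0.00902% of all genes were called. There were 3 members higher and 2 lower at an unadjusted p under 0.05, a share near that of all genes, 8.88%. No member had groups apart in this comparison, where 3.17% of all genes did. Genes of like brightness, between the quartiles of the members, had a median of 0.041 here, the same as the members. Without ASO-NSC mouse 57 the median of the members was 0.0031. The median turned to -0.0013 with litter as a block (35 of 71 positive), and it was 0.012 with arrays centred on their medians and 0.013 with quantile normalization. The 4 astrocyte markers had a median difference of 0.25 (level 9.61 to 9.95 in ASO-NSC mice and 9.34 to 9.49 in ASO-Veh mice) and the 5 spiny neuron markers -0.16 (level 10.2 to 11.1 in ASO-NSC mice and 10.9 to 11.3 in ASO-Veh mice), none of them called. The single blood cell marker differed by 0.41, the 3 choroid plexus markers by a median of 0.38, the 2 markers of oligodendrocyte progenitors by 0.21 and the 3 cortical neuron markers by -0.13, also with none called. The 4 microglia markers had a median difference of 0.14, the 3 oligodendrocyte markers 0.13 and the 4 neural stem cell markers 0.13, again with none called. The 3 endothelial markers had 0.065 and the 4 pan-neuronal markers -0.052, none of them called. The part of these cell types was not tested.

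Mrpl46, a large subunit protein specific to mitochondria, stood first in ASO mice. It measured 7.38, 7.56, 7.51, 7.54 and 7.62 in ASO-NSC mice 56, 57, 59, 73 and 75, against 7.36, 7.33, 7.45, 7.22 and 7.25 in ASO-Veh mice 42, 45, 46, 47 and 68. Of the ASO-NSC mice only mouse 56 lay within the ASO-Veh range, and the difference was 0.21 ± 0.071 (SE, limma adjusted p = 0.468). Mrps14, a small subunit protein shared with bacteria, measured 6.60, 6.89, 6.74, 6.63 and 6.75 in ASO-NSC mice and 6.44, 6.38, 6.62, 6.32 and 6.35 in ASO-Veh mice, with a single ASO-Veh mouse, 46, reaching the ASO-NSC range (difference 0.30 ± 0.11, SE, limma adjusted p = 0.483).

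Mrps26, a small subunit protein specific to mitochondria, ran the other way. Its values were 7.83, 8.04, 8.31, 7.64 and 8.04 in ASO-NSC mice and 8.28, 8.29, 7.86, 8.07 and 8.21 in ASO-Veh mice, and mouse 59, the one outside the fit, was the highest ASO-NSC mouse. The difference without that mouse was -0.26 ± 0.11 (SE, limma adjusted p = 0.519). With all 20 arrays the Mrps26 difference was -0.18, without ASO-NSC mouse 73 it was -0.17, and with litter as a block it turned to 0.023.

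The NSC effect in ASO mice minus that in WT mice was negative for 57 of 71 members, with a median of -0.076, so the fitted shift was smaller in ASO mice for most members. Among genes of like brightness 47.6% were positive, with a median of -0.0058. No member was called (smallest adjusted p 1.00), and 0% of all genes were called. At an unadjusted p under 0.05 there were 2 members, both negative, against 3.64% of all genes. They were Mrps17 (-0.33 ± 0.12, SE, but -0.12 with its brighter probe set) and Mrpl2 (-0.21 ± 0.099, SE). Mrpl46 followed (0.21 ± 0.099, SE), and each of these genes had a limma adjusted p of 1.00. The standard error of this difference had a median of 0.11, above the median of the members itself, and without WT-Veh mouse 67 the median of the members was -0.13, so neither a difference between the genotypes nor its absence could be shown gene by gene.

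With both genotypes pooled (NSC against Veh), 58 of 71 members were positive with a median of 0.081, and genes of like brightness had a median of 0.046. None was called, against 1.15% of all genes, and 15 passed an unadjusted p under 0.05, 14 higher and 1 lower, where 18.7% of all genes passed. Without the 5 arrays whose sex genes went against the label 5 members passed and the median was 0.067, and with quantile normalization it was 0.038, with arrays centred 0.052 and with litter as a block 0.047. Mrpl39 had the smallest adjusted p of any member in any comparison, 0.0688 (difference 0.16 ± 0.042, SE, limma). Mrpl15 followed with 0.17 ± 0.049 and Mrpl16, a protein that touches the tRNA in the large subunit, with 0.16 ± 0.049 (SE, limma adjusted p = 0.0883 and 0.113). The Mrpl39 values in ASO mice were 8.82, 8.88, 8.80, 8.72 and 8.76 for NSC and 8.65, 8.65, 8.66, 8.81 and 8.50 for Veh, and ASO-Veh mouse 47 alone reached the NSC range. In the pooled comparison 2 of 4 astrocyte markers (median 0.27) and 1 of 4 microglia markers (median 0.16) were called. The part of these cell types was not tested.

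Mrpl39 passed the threshold with all 20 arrays (0.16, adjusted p = 0.0455), with array weights, with a trended and robust prior, without ASO-Veh mouse 47 and without WT-Veh mouse 67. Without WT-Veh mouse 67, 11 of 71 members were called and all genes called numbered 1004. With litter as a block the sign of the Mrpl39 difference turned to -0.093 (adjusted p = 0.989), and 0 members were called.

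**Figure D4:**
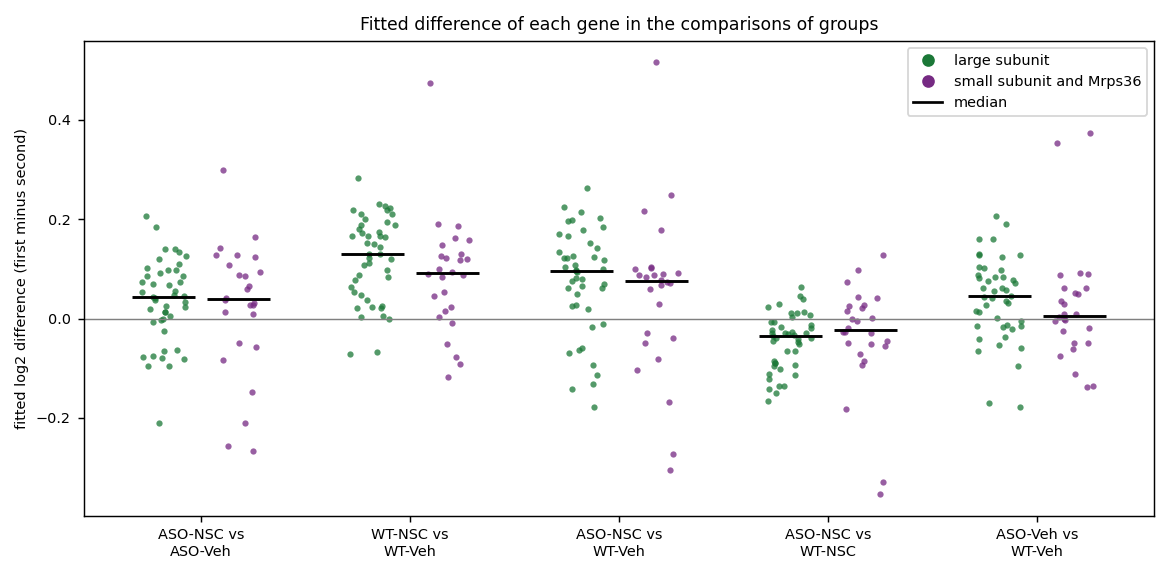
Fitted log2 difference of each of the 71 genes in the 5 comparisons of groups (first named group minus second), large subunit left and small subunit with Mrps36 right in each; black lines are medians. The points sit highest above 0 for WT-NSC vs WT-Veh (median of all members 0.12) and slightly below 0 for ASO-NSC vs WT-NSC (median -0.030).

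Differences with the transgene alone were small. For ASO-Veh against WT-Veh, 45 of 71 members were positive with a median of 0.035, and none was called (smallest adjusted p 0.985) where 0% of all genes were called. There were 2 members higher and 2 lower at an unadjusted p under 0.05, against 4.81% of all genes, and 0 members had groups apart, against 0.744% of all genes. Of the 5 arrays whose sex genes went against the label 4 lie in these groups, and without the 5 the median was 0.00020, with 37 of 71 positive and 1 member past the unadjusted threshold. Without WT-Veh mouse 67 it was 0.078, and without WT-Veh mouse 66 0.0031. Among genes of like brightness 46.3% were positive in the main fit, with a median of -0.0070. Mrpl46 measured 7.36, 7.33, 7.45, 7.22 and 7.25 in ASO-Veh mice and 7.38, 7.52, 7.60, 7.38 and 7.61 in WT-Veh mice (difference -0.18 ± 0.068, SE). Mrpl24, shared with bacteria, measured 8.84, 8.97, 8.72, 8.87 and 9.09 in ASO-Veh mice and 9.05, 9.02, 9.04, 8.97 and 9.19 in WT-Veh mice (-0.17 ± 0.066, SE). Both have a limma adjusted p of 0.985, and in both genes the groups overlapped. The Mrpl24 difference was -0.068 with litter as a block. Mrps18c was higher by 0.35 ± 0.15 (SE, limma adjusted p = 0.985) on a dim probe set. Mrps21 averaged 7.28 in ASO-Veh mice and 6.94 in WT-Veh mice. Within litter 1 the median of the members, ASO-Veh minus WT-Veh, was 0.041 (2 against 2 mice), and within litter 5 it was -0.0058 (1 against 3 mice).

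After grafting, ASO-NSC against WT-NSC, 20 of 71 members were positive with a median of -0.030. None was called (smallest adjusted p 1.00), 0.00451% of all genes were called, and 4 members passed an unadjusted p under 0.05, all 4 lower, where 3.05% of all genes passed. No member had groups apart, and 0.712% of all genes did. Among genes of like brightness 42.4% were positive, with a median of -0.013. Mrps17, a small subunit protein shared with bacteria, measured 5.91, 6.17, 5.85, 5.79 and 5.75 in ASO-NSC mice and 6.13, 6.46, 6.30, 6.04 and 6.25 in WT-NSC mice. Of the ASO-NSC mice only mouse 57 entered the WT-NSC range. Its difference of -0.35 ± 0.084 (SE, unadjusted p = 0.000531 and adjusted p = 1.00 in limma) ranked 8 among all 22180 genes. This value came from the dimmer probe set of Mrps17, and the brighter one gave -0.021 ± 0.073 (SE). Mrps26 differed by -0.33 ± 0.11 and Mrps18a by -0.17 ± 0.066 (SE, limma adjusted p = 1.00 each), and without ASO-NSC mouse 56 the Mrps18a difference was -0.10. Within litters the median of the members, ASO-NSC minus WT-NSC, was -0.058 in litter 4 (2 against 2 mice) and -0.046 in litter 6 (3 against 2 mice). Without ASO-NSC mouse 73 the median over the members was 0.0018.

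The grafted transgenic mice were also compared with saline-injected wild-type mice. ASO-NSC against WT-Veh gave 53 of 71 positive members with a median of 0.083, none called (smallest adjusted p 0.220, against 0.0135% of all genes called) and 13 past an unadjusted p under 0.05, 9 higher and 4 lower, where 13.7% of all genes passed. Without the 5 arrays whose sex genes went against the label the median was 0.047 with 6 members past that threshold, and it was 0.037 with litter as a block and 0.040 without ASO-NSC mouse 57. Among genes of like brightness, between the quartiles of the members, 62.8% were positive in the main fit, with a median of 0.038. This comparison shares its samples with those above and is not independent of them. In 3 members the groups were apart, as in 3.09% of all genes. Mrpl39 was higher in every ASO-NSC mouse (difference 0.20 ± 0.061, SE, limma adjusted p = 0.220). Mrps28, for which inherited loss in humans causes a combined deficiency, was lower in every one, with 6.76, 6.65, 6.80, 6.85 and 6.76 in ASO-NSC mice and 7.07, 7.12, 7.04, 7.00 and 6.92 in WT-Veh mice (-0.27 ± 0.090, SE, limma adjusted p = 0.244). The Mrps28 difference turned to 0.35 and that of Mrpl39 to -0.12 with litter as a block. Mrpl55, the steadiest member, was also lower in every ASO-NSC mouse, though by little (fitted difference -0.062 ± 0.051, SE, limma adjusted p = 0.592).

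With treatments pooled, ASO against WT, 33 of 71 members were positive with a median of -0.0049. None was called (smallest adjusted p 0.996), 0.00902% of all genes were called, and 5 members, all lower, passed an unadjusted p under 0.05 where 4.01% of all genes passed. Mrps17 (-0.19 ± 0.058), Mrpl24 (-0.13 ± 0.048) and Mrps26 (-0.19 ± 0.073) had the smallest p (SE, limma adjusted p = 0.996 each). With litter as a block the Mrpl24 difference was -0.070 and that of Mrps26 -0.12. With its brighter probe set the Mrps17 difference turned to 0.041. Without the 5 arrays whose sex genes went against the label the median of the members was -0.020. Among genes of like brightness 42.7% were positive in the main fit, with a median of -0.0098.

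Some of these leading values rested on which probe set stood for the gene. Among the 9 members with more than 1 probe set, the one kept was the dimmer for Mrpl12, Mrpl47, Mrps17, Mrps18b, Mrps18c and Mrps5, and its correlation over the 20 mice with the other probe set was 0.70 for Mrpl47 and 0.30 or less for the other 8. For Mrps17 the probe set used had a mean of 6.06 and the other 7.63, and their correlation was 0.073. The brighter probe set gave -0.021 ± 0.073 in ASO-NSC against WT-NSC mice (SE, limma adjusted p = 1.00), where the one used gave -0.35, and -0.12 for the difference of the NSC effects, where the one used gave -0.33. For Mrps18c it gave -0.032 ± 0.076 (SE, limma adjusted p = 0.997) for ASO-Veh against WT-Veh, in place of 0.35.

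The members varied together over the 20 mice. Of 2485 pairs of members, 79.4% had a positive Pearson correlation, with a median of 0.28. Pairs of a member and another gene, not matched for brightness, had a median of 0.0022. Pairs within the large subunit had a median of 0.35, pairs within the small subunit 0.18, and pairs across the subunits 0.25. These are descriptions over 20 arrays that share 4 groups, 5 litters and the normalization. They use the kept probe set of each gene, and the other probe sets described above were not tried here. The closest pairs, picked after the correlations were seen, were Mrpl50 with Mrps23 (0.88), Mrpl58 with Mrps23 (0.87) and Mrpl50 with Mrpl58 (0.86), all specific to mitochondria and from both subunits. Mrps28 and Mrps9 had the lowest mean correlation with the other members, -0.22 and -0.17. It was also negative for Mrpl1 (-0.13), Mrpl12 (-0.11), Mrps5 (-0.062) and Mrps25 (-0.041). The lowest pair was Mrpl39 with Mrps28 (-0.74).

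**Figure D5:**
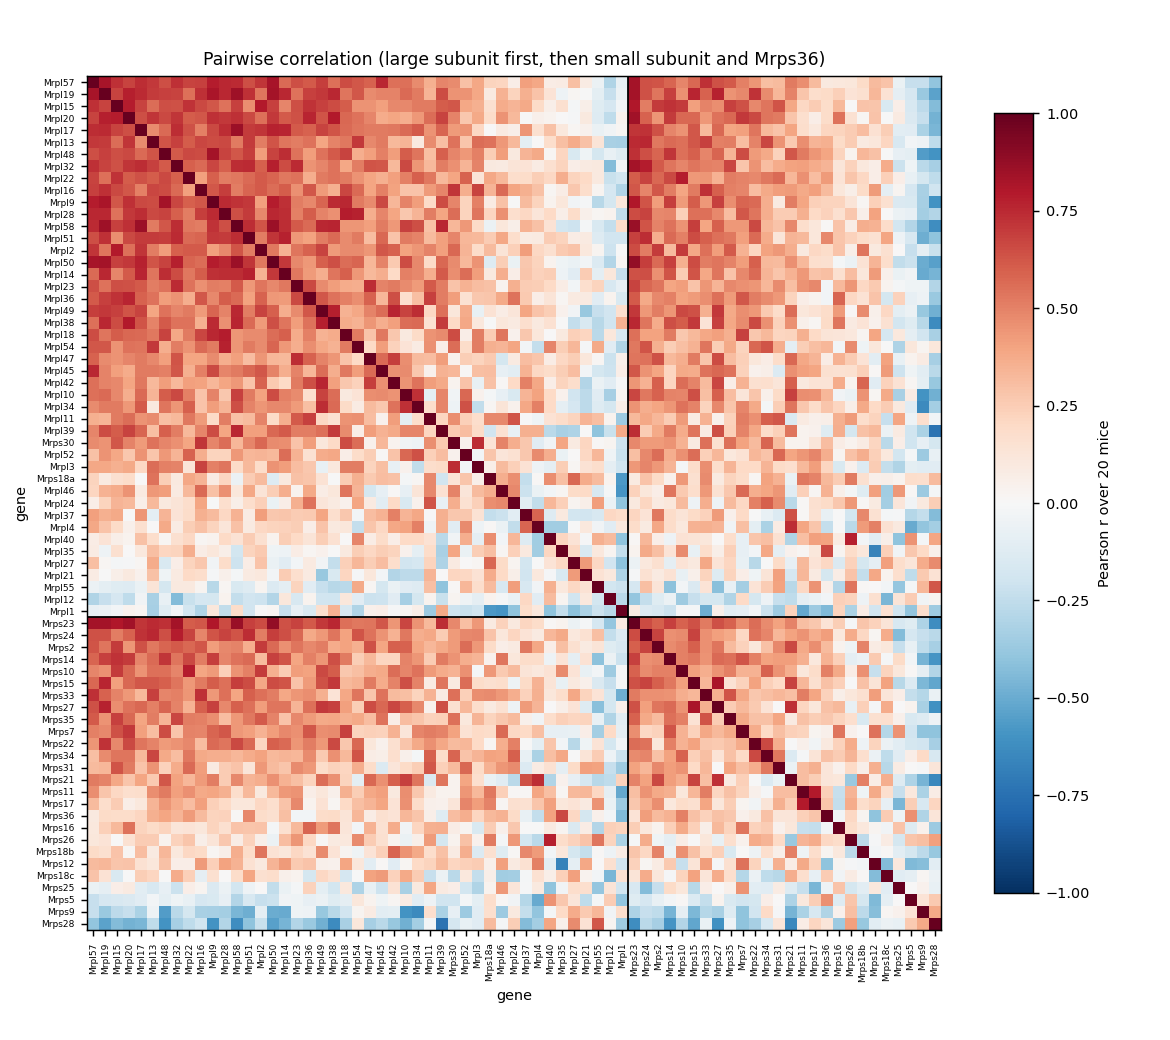
Pearson correlation over 20 mice between each pair of the 71 genes, ordered by mean correlation within the large subunit (first) and within the small subunit with Mrps36 (second, after the black lines). A red block of large subunit genes extends to small subunit genes such as Mrps23, and Mrps9 and Mrps28 stand last, with the lowest mean correlations of all members.

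Promoters are shown for 4 members: Mrps23 and Mrpl58, from the closest pairs, Mrpl39, the member with the smallest adjusted p, and Mrps11, which shares its start region with Mrpl46. Windows from 250 bases before to 50 after the start were taken from RefSeq (GRCm38.p6), which gave 68 windows for 62 of 71 members. Motifs of factors known to control nuclear genes of mitochondria were searched on both strands: CCGGAAG, a core of the GABP and ETS family, was in 33.8% of the members' windows and 8.86% of all 32851 windows. CGCATGCG, a core of the NRF1 site, was in 10.3% of the members' windows and 1.87% of all, and AAGATGGC, a core of the YY1 site, in 17.6% and 2.75%. At least 1 of the 3 was in 51.5% of the members' windows and 12.6% of all, and matches of different motifs overlapped in 0 of the members' windows. A match is only a run of letters and says nothing of binding. The windows are written 5′ to 3′ on the strand of the gene with matches in capitals. Those of Mrps23 (chr11:88204138-88204437, plus strand) and Mrpl58 (chr11:115403502-115403801, plus strand) hold the GABP core, which Mrpl58 has at 2 places, and that of Mrpl39 (chr16:84735195-84735494, minus strand) holds the NRF1 core. The window of Mrps23 lies inside the annotated span of the gene (chr11:88194106-88211507), not at the start of that span. That of Mrps11 (chr7:78782881-78783180, plus strand), with the YY1 core in reverse, shares 141 bases with the window of Mrpl46, which is read from the opposite strand.
Mrps23: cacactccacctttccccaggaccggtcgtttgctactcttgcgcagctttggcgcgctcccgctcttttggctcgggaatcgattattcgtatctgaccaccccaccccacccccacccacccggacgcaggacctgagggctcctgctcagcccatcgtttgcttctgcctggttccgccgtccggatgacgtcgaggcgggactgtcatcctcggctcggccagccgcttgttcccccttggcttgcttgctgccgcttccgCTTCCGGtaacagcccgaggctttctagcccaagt
Mrpl58: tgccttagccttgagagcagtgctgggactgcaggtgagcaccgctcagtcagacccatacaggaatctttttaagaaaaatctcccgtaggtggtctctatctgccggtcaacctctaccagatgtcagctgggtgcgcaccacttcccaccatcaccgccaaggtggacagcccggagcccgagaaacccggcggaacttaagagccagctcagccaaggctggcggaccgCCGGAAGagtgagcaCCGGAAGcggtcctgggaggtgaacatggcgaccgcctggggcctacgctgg
Mrpl39: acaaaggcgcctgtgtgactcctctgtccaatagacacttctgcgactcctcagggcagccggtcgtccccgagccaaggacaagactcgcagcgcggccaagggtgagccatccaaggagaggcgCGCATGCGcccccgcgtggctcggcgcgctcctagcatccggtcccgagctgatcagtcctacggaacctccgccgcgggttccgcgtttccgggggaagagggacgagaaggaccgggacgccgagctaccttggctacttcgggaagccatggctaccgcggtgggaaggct
Mrps11: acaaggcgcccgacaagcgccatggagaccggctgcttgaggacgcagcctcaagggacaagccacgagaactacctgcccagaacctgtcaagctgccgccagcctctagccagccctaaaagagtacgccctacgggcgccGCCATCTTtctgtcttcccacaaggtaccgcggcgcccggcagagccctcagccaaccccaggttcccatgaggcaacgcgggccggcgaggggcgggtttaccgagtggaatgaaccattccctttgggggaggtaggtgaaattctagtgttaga
Both genes share a start region, yet the correlation of the pair over the 20 mice was 0.24, near the median of all pairs. Mrps11 was among the steadiest members (SD 0.066), and Mrpl46 led the list in ASO mice.

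The wider machinery of mitochondrial translation was looked at in the same way, by lists of genes, and no gene of these lists was called in WT-NSC against WT-Veh or in ASO-NSC against ASO-Veh other than Myc. In WT mice the 26 assembly factors measured had a median of 0.079 with 22 positive, led by Rbfa, which helps to mature the small subunit (0.21 ± 0.072, SE, limma adjusted p = 0.211), and Eral1, a chaperone of its RNA (0.20 ± 0.070, SE, limma adjusted p = 0.226). The 13 translation factors had a median of 0.058 with 9 positive, led by the elongation factor Gfm1 (0.13 ± 0.059, SE, limma adjusted p = 0.358). The 19 tRNA synthetases had a median of 0.0086 with 10 positive, near that of all genes. The 11 genes of mitochondrial DNA expression had a median of 0.056 with 10 positive, and 3 ribosomal proteins under other symbols (Dap3 and Ptcd3 among them) 0.092 with 3 positive.

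Of 9 regulators of mitochondrial biogenesis, with a median of 0.0021, Myc was called, higher in WT-NSC mice by 0.32 ± 0.069 (SE, limma adjusted p = 0.0464). This is close to the threshold, in a comparison where 0.433% of all genes were called. Whether the Myc call held in the alternatives was not tested. In ASO mice Myc differed by 0.13 ± 0.073 (SE, limma adjusted p = 0.600). Myc encodes a transcription factor of cell growth that also drives ribosome production. Esrra, a nuclear receptor that controls genes of oxidative metabolism, differed by -0.15 ± 0.053 (SE, limma adjusted p = 0.229). Among complex I subunits, 27 of 32 were positive in WT mice with a median of 0.076, and among cytosolic ribosomal proteins 45 of 66 with a median of 0.064.

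In ASO mice the assembly factors had a median of 0.0086 with 16 of 26 positive and the translation factors 0.056 with 10 of 13 positive. Complex I had -0.0018 with 16 of 32 positive, and the genes of mitochondrial DNA expression 0.11 with 8 of 11 positive, led by Tfam, the factor that packages and transcribes mitochondrial DNA (0.22 ± 0.088, SE, limma adjusted p = 0.507). Gabpb1, a subunit of the GABP factor, differed by 0.18 ± 0.049 (SE, limma adjusted p = 0.360). For the 11 members whose human counterparts are known from combined oxidative phosphorylation deficiency, the median was 0.093 with 9 positive in ASO mice and 0.045 with 8 positive in WT mice.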

How the data were processed

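Striatal RNA of 20 mice was hybridised to Affymetrix Mouse Gene 2.0 ST arrays, 1 mouse an array. Deposited were log2 intensities for 41345 transcript clusters, produced by the authors through RMA (background correction, quantile normalization, summary of probes) in oligo. Of these 23521 named a single gene, which gave 22180 genes; among several probe sets of a gene the most variable by interquartile range was used. Variance filter and litter adjustment of the study's network were not applied. limma 3.58.1 under R 4.3.3 fitted group and labelled sex to 19 arrays for 8 two-sided contrasts, with 14 residual and 4.20 prior degrees of freedom, after the code had been tested on simulated data. Each group holds 4 or 5 mice in the fit, and that number limits the precision. The RNA integrity number (RIN) ran from 9.2 to 9.7.

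Members, gene lists and motifs were chosen with earlier results of these data known. Named with values were the 3 members with the smallest p in each comparison, those whose NSC and Veh mice did not overlap within a genotype, the 3 brightest, dimmest, steadiest and most variable, and up to 2 genes of a list. Alternatives covered samples, covariates, litter, variance prior, weights, probe sets, filters, normalization and each mouse left out. Figures used matplotlib 3.10.9.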

Additional observations from a re-analysis of the deposited data

Results flagged for a closer look

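Within each group of 5 mice, the gap between the highest or lowest mouse and its neighbour was set against Dixon's critical value of 0.71 for the named members and the mean deviations, 104 groups in all, of which chance alone is expected to mark about 1 in 20. Marked were 2. Mrpl15 in WT-Veh mouse 67 stood at 8.54, above 8.17 to 8.27 in the other 4 WT-Veh mice. Mrpl35 in ASO-NSC mouse 57 stood at 9.34, above 9.16 to 9.21 in the other 4 ASO-NSC mice. These are the mice with the highest mean deviation of the members in their groups.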

How the results depend on the processing

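Among the alternatives run, 0 members were called in the comparisons other than NSC against Veh with genotypes pooled and WT-NSC against WT-Veh. With genotypes pooled, 1 member was called with all 20 arrays, 1 with a trended and robust prior and 7 with array weights, and leaving out 1 mouse gave 0 to 11, with 1 without ASO-Veh mouse 47 and 11 without WT-Veh mouse 67. Calls over all genes rose as well, from 256 in the main fit to 480, 344, 1458, 469 and 1004 in the order named. In WT-NSC against WT-Veh leaving out 1 mouse gave 0 to 2 members called, with 2 without WT-Veh mouse 67. There all genes called rose from 96 to 277. Several medians of the members were under the SD of their mean deviation between mice of a group, 0.068, so moving by less than that, as all did, is no sign of stability. The median of ASO-NSC against ASO-Veh turned to -0.0013 with litter as a fixed block and fell to 0.012 with centred arrays and 0.013 with quantile normalization, and that of NSC against Veh pooled fell to 0.038 with quantile normalization. Without the 5 arrays whose sex genes went against the label the median was 0.00020 for ASO-Veh against WT-Veh and 0.070 for WT-NSC against WT-Veh. Leaving out 1 mouse the median ran from 0.090 to 0.16 for WT-NSC against WT-Veh, from 0.0031 to 0.065 for ASO-NSC against ASO-Veh, from -0.076 to 0.0018 for ASO-NSC against WT-NSC, from 0.0031 to 0.078 for ASO-Veh against WT-Veh and from -0.13 to -0.057 for the difference of the NSC effects. With litter as a fixed block signs turned for Mrpl39 in WT-NSC against WT-Veh (-0.13), in ASO-NSC against WT-Veh (-0.12) and pooled (-0.093), for Mrps26 in ASO-NSC against ASO-Veh (0.023) and against WT-Veh (0.084), and for Mrps28 in ASO-NSC against WT-Veh (0.35), where only litter 3 links the treatments. With the brighter probe set Mrps17, ASO against WT pooled, was 0.041 and Mrps18c, ASO-Veh against WT-Veh, -0.032. No paired analysis was possible because mouse numbers name single mice and pair none across groups. Litters tie ASO and WT mice of a treatment and were used instead, as a block and in differences within litters. The cause of these changes was not tested.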
